A study of Mus musculus with 36 samples.

Results

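The probes described here rose within 9 to 12 h of the start of muscle differentiation in C2C12 cells and were still raised at 144 h. They were chosen from the deposited normalized log2 intensities of 46019 array probes, and 142 probes met every condition. The change at a time was taken as the mean level of the 3 arrays at that time minus the mean of the 3 arrays at 0 h, on the log2 scale. A probe was kept if its change was at least 0.5 at both 9 h and 12 h and at least 0.8 at 144 h. Its change at 144 h also had to lie no more than 0.5 below the larger of the changes at 24 h and 48 h, and all 3 replicates had to be above their own 0 h array at 12 h. Of the 142 probes, 112 carried 1 gene symbol in the platform annotation and named 104 genes, and 30 carried none. The levels at 0, 9, 12, 24, 48 and 144 h therefore chose the members and are given below as a description with no test. Tests were run only between 1, 3, 6 and 96 h, whose arrays the rule did not use. Fits with the array chip as a block are a partial exception. Their chip offsets were estimated from all 36 arrays, so differences across chips draw in part on arrays that chose the members. Both 6 h and 96 h lie next to times that chose the members, so tests there are not independent of the choice.

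C2C12 is an established line of mouse myoblasts, the proliferating precursors of muscle fibres. Undifferentiated cells were held in DMEM with 20% fetal bovine serum and made up the 0 h samples, and differentiation was started with DMEM holding 2% horse serum. Total RNA was measured on Illumina Mouse WG-6 v1.1 bead arrays at 0, 1, 1.5, 2, 3, 6, 9, 12, 24, 48, 96 and 144 h, with 3 arrays per time and 36 in all. Each time came from plates of its own, and the 3 replicates were successive passages of 1 cell line. Every sample after 0 h shared the new medium, so the effect of the medium change itself and that of differentiation cannot be told apart. In whole cultures, a rise in the share of differentiating cells and a rise in RNA per cell cannot be told apart either.

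When growth factors are withdrawn, myoblasts leave the cell cycle, switch on the transcription factor myogenin, fuse with each other and build sarcomeres, the repeated actin and myosin units that contract. Myogenin and its relatives of the MyoD family bind E-boxes, short DNA sites often found close to the start of muscle genes, and act together with MEF2 proteins bound to their own sites nearby. Serum response factor binds the CArG box, another short element, in actin genes.

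The 250 bases upstream of the annotated gene starts were read from RefSeq sequence of mouse build GRCm38.p6. Entries were found for 77 of the 104 named genes, which gave 110 windows because 20 genes had more than 1 annotated start. The E-box form CAGCTG, which reads the same on both strands, was found in 41 of the 110 windows (37.3%), against 13.0% of the 32851 windows of all genes. It was found in 19.1% of 94 windows of the later risers, genes whose probes had changes below 0.5 at both 9 h and 12 h, at least 0.8 at 24 h, and met the same conditions at 144 h, and in 16.7% of 54 windows of the genes that rose by 9 to 12 h and did not stay. Over the 57 member genes with a single window, CAGCTG was found in 38.6%, against 12.7% of all genes with a single window. The looser form CANNTG, which contains CAGCTG, was found in 71.8% of the member windows, against 66.2% of all windows. Over genes with a single window the order was the other way, 59.65% of member genes against 66.3% of all. CANNTG was also found in 71.3% of the later risers' windows, close to the share in the members. In the windows of risers that did not stay it was found in 57.4%. The MEF2 site was sought on both strands as YTAWWWWTAR, where Y is C or T, W is A or T, and R is A or G. It was present in 12.7% of the member windows, 4.26% of the later risers' windows, 1.85% of the windows of risers that did not stay, and 2.92% of all windows. The CArG box, CCWWWWWWGG, was present in 2.73% of the member windows (3 of 110) and 1.47% of all windows. It was present in 4.26% of the later risers' windows, a larger share than in the members, and in 1.85% of the windows of risers that did not stay. These are matches of letters and not sites shown to be bound, and variants outside these patterns were not counted.

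Windows of 6 members are printed because they show these elements beside genes whose values follow. Each runs 5′ to 3′ on the gene's strand and ends at the base before the annotated start, and capitals mark every match to CANNTG, the MEF2 site or the CArG box. Chrng holds 2 copies of CAGCTG, Klhl41 and Pgam2 each hold CAGCTG and a MEF2 site, Acta1 holds CAGCTG and a CArG box, Actc1 holds a CArG box, and Myog holds E-boxes of other forms. The Myog window also holds ctatatttat, which misses the MEF2 pattern only in its last base and is not marked. Absence of capitals therefore does not show that a window lacks a MEF2 site.
Chrng (chr1:87205561-87205810, plus strand): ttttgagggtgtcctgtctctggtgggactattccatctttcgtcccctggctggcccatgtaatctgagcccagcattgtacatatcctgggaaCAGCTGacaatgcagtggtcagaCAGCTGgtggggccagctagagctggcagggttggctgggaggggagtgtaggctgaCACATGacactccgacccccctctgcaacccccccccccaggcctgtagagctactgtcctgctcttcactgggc
Klhl41 (chr2:69669870-69670119, plus strand): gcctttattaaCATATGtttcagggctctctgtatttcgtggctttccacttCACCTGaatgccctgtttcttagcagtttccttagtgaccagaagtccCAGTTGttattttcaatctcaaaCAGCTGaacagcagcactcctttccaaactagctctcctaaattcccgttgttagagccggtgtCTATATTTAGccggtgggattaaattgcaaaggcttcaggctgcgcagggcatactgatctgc
Pgam2 (chr11:5803797-5804046, minus strand): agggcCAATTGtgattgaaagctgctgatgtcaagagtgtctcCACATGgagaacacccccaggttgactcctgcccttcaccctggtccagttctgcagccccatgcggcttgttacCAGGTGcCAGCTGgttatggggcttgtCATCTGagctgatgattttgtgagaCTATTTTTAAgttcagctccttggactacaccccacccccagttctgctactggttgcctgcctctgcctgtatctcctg
Acta1 (chr8:123894776-123895025, minus strand): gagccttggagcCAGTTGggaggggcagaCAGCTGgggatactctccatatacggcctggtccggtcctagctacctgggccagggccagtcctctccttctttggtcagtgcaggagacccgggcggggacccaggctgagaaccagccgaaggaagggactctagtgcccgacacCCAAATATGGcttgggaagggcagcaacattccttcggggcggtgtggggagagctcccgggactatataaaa
Actc1 (chr2:114052876-114053125, minus strand): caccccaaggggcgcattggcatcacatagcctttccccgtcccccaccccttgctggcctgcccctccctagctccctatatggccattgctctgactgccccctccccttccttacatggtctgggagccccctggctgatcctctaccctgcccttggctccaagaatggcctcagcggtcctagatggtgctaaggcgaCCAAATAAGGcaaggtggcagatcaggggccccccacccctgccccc
Myog (chr1:134289754-134290003, plus strand): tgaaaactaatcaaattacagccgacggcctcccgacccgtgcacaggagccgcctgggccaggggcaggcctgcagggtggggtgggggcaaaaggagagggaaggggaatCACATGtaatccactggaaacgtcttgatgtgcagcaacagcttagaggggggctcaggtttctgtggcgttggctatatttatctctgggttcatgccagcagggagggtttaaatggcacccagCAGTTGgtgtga

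The 142 members started at levels between 8.42 and 14.58 at 0 h, on a scale whose array medians lay between 8.37 and 8.38 and whose highest value was 16.18. The median change from 0 h was 0.06 (1 h), 0.13 (1.5 h), 0.14 (2 h), 0.25 (3 h), 0.56 (6 h), 0.78 (9 h), 0.94 (12 h), 1.74 (24 h), 2.10 (48 h), 2.33 (96 h) and 2.50 (144 h). The median of all 29812 probes above the intensity filter stayed within 0.01 of 0 at each of these times. The number of members at or above a change of 0.5 was 0 (1 h), 5 (1.5 h), 7 (2 h), 27 (3 h) and 89 (6 h). At 6 h 0.688% of all tested probes were at or above it. These changes share their 0 h arrays with the rule. Changes at 144 h ran from 0.81 to 6.21, and 26 members were at 4 or more. The largest change fell at 144 h in 89 members and at 96 h in 25. It fell at 48 h in 22 members and at 24 h in 4, and 1 member each had it at 12 h and at 9 h.

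**Figure D1:**
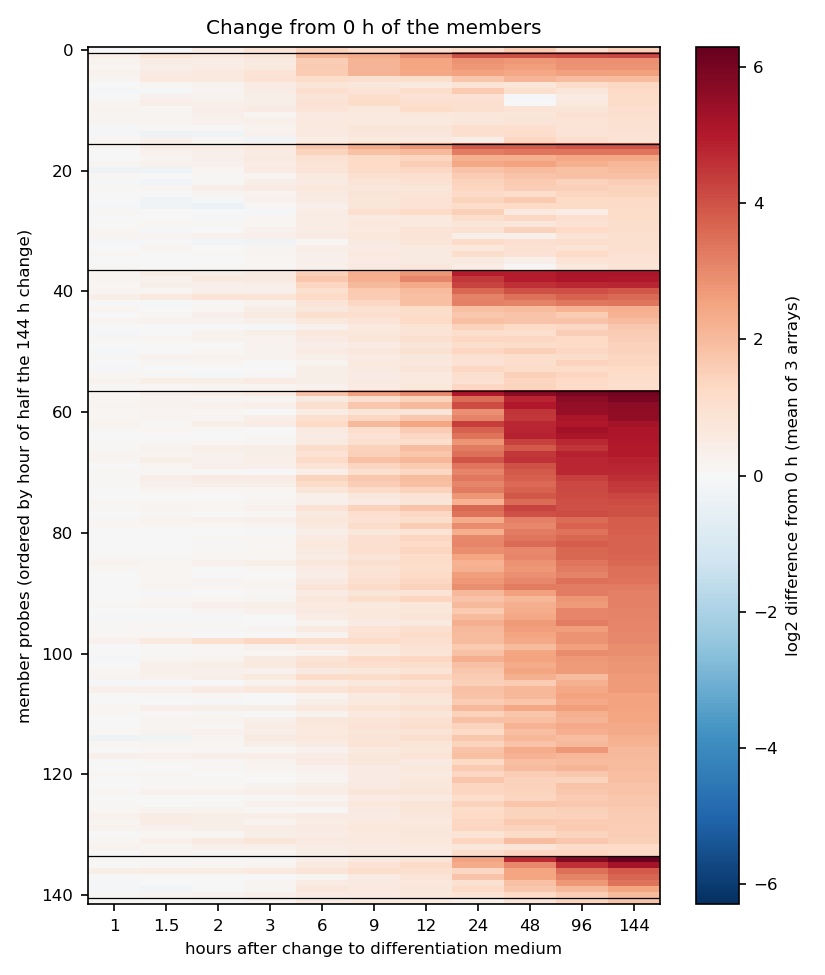
Change from 0 h (log2, mean of 3 arrays, colour) of the 142 member probes (rows) at the 11 later times (columns, equally spaced). Rows are ordered by the first hour at which a probe reached 50% of its 144 h change, with lines between hours (3, 6, 9, 12, 24, 48 and 96 h from top to bottom), and within an hour by the 144 h change; the largest block, 77 probes, reached 50% at 24 h.

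The members did not rise in step. The number of members that first reached 50% of their 144 h change was 1 (3 h), 15 (6 h), 21 (9 h), 20 (12 h), 77 (24 h), 7 (48 h) and 1 (96 h). The 12 h change was at least 75% of the 144 h change in 14 members and under 25% of it in 13. Actc1 and Acta1 had most of their 144 h change at 12 h, and Mb, Cox6a2 and Myoz2 had less than 25% of it. For 31 members the 0 h mean lay within 0.5 of the array median, close to the floor of the scale, and for 4 members the 12 h mean was already above 15, close to its top. Differences of such probes are limited by the ends of the scale.

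Myog encodes myogenin, and its probe started from a low level. It read 9.87, 8.91 and 9.16 (0 h), 10.76, 9.64 and 10.11 (6 h), 11.22, 10.57 and 10.83 (12 h), 11.73, 11.72 and 11.74 (24 h) and 11.19, 11.57 and 11.47 (144 h) in replicates 1, 2 and 3. Replicate 1 lay above the other 2 at 0, 6 and 12 h, and all 3 were nearly equal at 24 h. Between 6 h and 1 h Myog differed by 0.68 ± 0.31 (SE, n = 3 arrays per time), which was not called (limma, adjusted p = 0.376; 0.0719 with the replicate number as a block). With the chip as a block it was called (0.71, adjusted p = 0.0396). Its level at 96 h was above that at 6 h by 1.36 (adjusted p = 0.00152). Myog was the only member among 24 tested probes for myogenic transcription factors and their inhibitors. Between 6 h and 96 h, 11.2% of all tested probes rose and 11.4% fell. In that list 3 probes rose and 4 fell between 6 h and 96 h, and the other 2 that rose were 1 of 3 Mef2c probes and Myf6, neither a member. Their changes from 0 h were 0.20 and -0.06 at 12 h and 3.13 and 1.22 at 144 h. Myod1, not a member, had changes of -0.23 at 12 h and 0.10 at 144 h. Id3, whose protein blocks MyoD family factors and which is no member, was lower at 6 h than at 1 h by 0.86 (adjusted p = 0.0366). Heyl, a basic helix-loop-helix repressor downstream of Notch and the 1 member among 21 tested probes for Notch and TGF beta signalling, had changes of 0.93 at 12 h and 1.20 at 144 h. Its 96 h level was above its 6 h level by 0.91 (adjusted p = 0.000801).

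Cdkn1a encodes p21, the inhibitor of cyclin-dependent kinases that holds differentiating myoblasts out of the cell cycle. It was represented by 2 member probes, both strong at 0 h. The first read 13.53, 12.53 and 13.11 (0 h), 14.43, 13.42 and 13.95 (6 h), 14.59, 14.04 and 14.48 (12 h), 15.34, 15.21 and 15.45 (24 h) and 16.04, 15.93 and 15.73 (144 h). Its 6 h values overlapped its 1 h values of 13.50, 12.47 and 12.81, with replicate 2 low at both times. Each replicate was higher at 6 h, and the difference of 1.00 ± 0.26 was called (adjusted p = 0.0476). The second probe differed by 1.02 ± 0.21 (adjusted p = 0.012). The other 14 tested probes of the cell cycle exit list held no member. Of all tested probes 11.2% were higher and 11.4% lower at 96 h than at 6 h. At 96 h against 6 h, 4 probes of that list were higher and 3 lower, the higher ones being both Cdkn1a probes and 2 that are no members, Cdkn1c and a Ccnd3 probe.

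Mymk encodes myomaker, the membrane protein needed for myoblast fusion. Its level was 9.91, 8.93 and 9.31 (0 h), 11.19, 9.59 and 10.33 (6 h), 11.78, 10.96 and 11.34 (12 h), 13.03, 13.00 and 12.97 (24 h) and 13.12, 13.57 and 13.25 (144 h). The difference of 0.81 between 6 h and 1 h was not called (adjusted p = 0.357; 0.0856 with the replicate number as a block). With the chip as a block it was called (0.93, adjusted p = 0.0265). The difference of 3.07 between 96 h and 6 h was called (adjusted p = 9.81e-08). Itga7, the integrin alpha 7 chain that ties muscle cells to laminin, had smaller changes of 0.78 at 12 h and 1.23 at 144 h. Of 32 tested probes for fusion and adhesion genes, these were the 2 members. At 96 h against 6 h, 5 of the 32 probes were higher and 1 lower, against 11.2% and 11.4% of all tested probes.

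The sarcomere supplied 17 member probes for 16 genes, of 34 tested probes for 22 genes. Thin-filament genes had some of the largest 12 h changes. Actc1, the cardiac actin that embryonic skeletal muscle also makes, read 13.16, 10.90 and 11.88 (0 h), 14.98, 12.47 and 13.61 (6 h), 15.39, 14.20 and 14.70 (12 h), 16.00, 15.77 and 15.78 (24 h) and 16.09, 15.94 and 15.75 (144 h). Replicate 1 was highest and replicate 2 lowest at 0, 6 and 12 h, and by 24 h all 3 were near the top of the scale. Acta1, the actin of adult skeletal muscle, followed the same course from a higher start of 14.09, 12.04 and 13.36 at 0 h. At 12 h it read 15.98, 15.07 and 15.85, and at 144 h 16.12, 16.05 and 15.75. Changes at 12 h were 2.78 for Actc1, 2.47 for Acta1, 2.48 for Tnnc1 (troponin C), 2.41 for Tnni2 (fast troponin I), 2.08 for Tpm2 (beta tropomyosin, not in the list) and 2.05 for Tnnt3 (fast troponin T). At 144 h the changes were 2.90 for Tnnc1, 2.81 for Acta1 and 3.94 for Actc1, and 4.78, 4.84 and 5.66 for Tnni2, Tpm2 and Tnnt3. Tnnc1, Acta1 and Actc1 were near the top of the scale from 24 h on, where no further gain could be read. The slow and cardiac troponin genes Tnni1, Tnnt1 and Tnnt2 had changes of 1.73, 1.14 and 1.90 at 12 h and of 4.98, 3.61 and 3.36 at 144 h.

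Thick-filament and anchoring genes gave further members. Mybph, a myosin binding protein, had the largest 12 h change among the named members. It read 10.63, 9.14 and 9.86 (0 h), 12.80, 10.48 and 11.70 (6 h), 13.51, 12.09 and 13.01 (12 h), 15.07, 14.83 and 14.82 (24 h) and 16.03, 15.92 and 15.72 (144 h), which gave changes of 2.99 (12 h) and 6.02 (144 h). Myl4, the embryonic myosin light chain, had changes of 2.76 at 12 h and 5.14 at 144 h. The 2 probes of Myl1, the fast alkali light chain, had changes of 1.95 and 1.69 at 12 h and of 5.01 and 5.57 at 144 h. Myh8, the perinatal heavy chain, had changes of 1.32 at 12 h and 5.08 at 144 h, and Myh1, an adult fast heavy chain, of 0.67 and 3.398. Replicate 1 carried the 12 h value of Myh1, which read 10.28, 8.61 and 8.67 at 12 h, against 8.79, 8.39 and 8.37 at 0 h, and without that replicate its 12 h change was 0.26, below the 0.5 that the rule asks for. The Z-disc and M-band genes Actn2, Myom2 and Ttn had changes of 1.58, 1.66 and 0.87 at 12 h and of 5.08, 4.82 and 2.67 at 144 h. Myoz2, a Z-disc protein that binds calcineurin and is also not in the list, had one of the largest late changes, 1.39 at 12 h and 5.94 at 144 h, from a 0 h mean of 8.65 that is close to the floor.

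In the sarcomere list 0 of the 34 probes were called at 6 h against 1 h without a block, and 11 were called higher with the replicate number as a block and 18 with the chip as a block. Of all tested probes 0.47%, 2.21% and 1.95% were called higher in these fits. Actc1 itself differed by 1.52 ± 0.60 (adjusted p = 0.271; 0.013 with the block). Its 6 h values of 14.98, 12.47 and 13.61 overlapped its 1 h values of 13.41, 11.52 and 11.55, although each replicate was higher at 6 h. Between 6 h and 96 h, 27 of the 34 probes rose and 0 fell, against 11.2% and 11.4% of all tested probes. The 34 include 17 member probes, chosen in part for high levels at 144 h. Acta1 was among those not called (1.16, adjusted p = 0.14; 0.0154 with the block). It read 16.05, 15.93 and 15.93 at 96 h, against 15.70, 13.58 and 15.15 at 6 h, so 2 of the 6 h arrays already lay within 1 unit of their 96 h values.

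**Figure D2:**
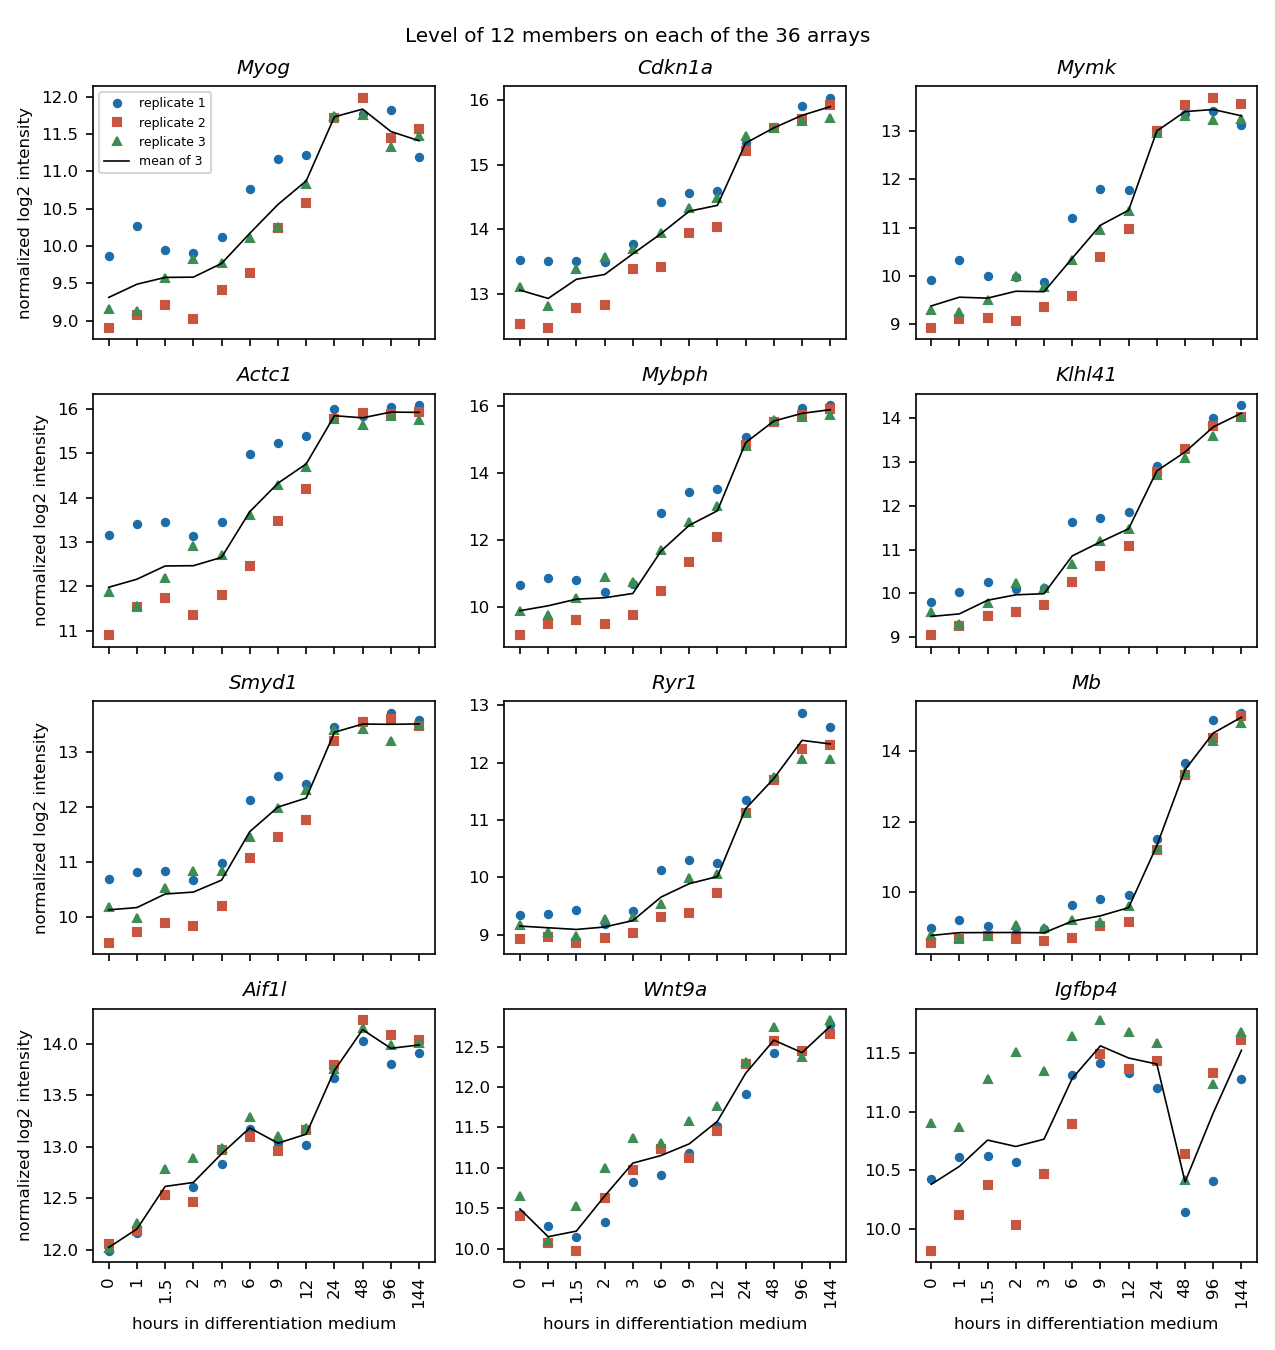
Normalized log2 intensity (vertical axes, separate scales) of 12 members on each of the 36 arrays against time (12 times, equally spaced); symbols are replicates and the line joins the means of 3. Replicate 2 lies lowest in Myog, Cdkn1a, Mymk, Actc1, Mybph, Klhl41 and Smyd1 at 6, 9 and 12 h and joins the others by 24 h, while the 3 replicates of Aif1l lie close together throughout.

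Genes that serve the assembly and upkeep of the sarcomere were members too. Smyd1, a muscle methyltransferase required for sarcomere assembly in zebrafish, read 12.13, 11.06 and 11.45 at 6 h, against 10.81, 9.72 and 9.97 at 1 h. All 6 h values lay above all 1 h values, and the difference of 1.38 ± 0.32 was called (adjusted p = 0.0252). Klhl41, a Kelch protein of the sarcomere, read 11.63, 10.27 and 10.67 at 6 h, against 10.04, 9.26 and 9.30 at 1 h. This difference of 1.32 ± 0.29 was called too (adjusted p = 0.0153). The array gave 3 further Kelch members, which were singled out after their values were seen. Klhl30, Klhl31 and Klhl40 differed between 6 h and 1 h by 0.94, 0.73 and 0.53 (adjusted p = 0.0013, 0.0384 and 0.0134), and their 144 h changes were 2.81, 2.47 and 3.13. Lmod3, an actin nucleator that KLHL40 protects from degradation in mice, had changes of 0.90 at 12 h and 2.92 at 144 h (also named after its values were seen). Its difference of 0.50 between 6 h and 1 h was called only with the block (adjusted p = 0.347 without it and 0.0177 with it).

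Calcium handling and excitation gave 7 member probes for 6 genes, of 28 tested probes. Atp2a1 and Atp2a2, the calcium pumps of the sarcoplasmic reticulum, had changes of 1.47 and 0.73 at 12 h and of 4.42 and 3.16 at 144 h. Casq2, a calcium store protein, had changes of 1.82 at 12 h and 4.001 at 144 h. Ryr1, the calcium release channel, was read by 2 member probes that gave nearly the same course, 0.86 and 0.80 at 12 h and 3.18 and 3.11 at 144 h. Of the acetylcholine receptor subunits, Chrng, the fetal gamma chain, read 12.32, 11.48 and 12.08 (0 h), 12.92, 11.71 and 12.50 (6 h), 13.34, 12.83 and 13.41 (12 h), 14.57, 14.50 and 14.70 (24 h) and 15.45, 15.37 and 15.47 (144 h). The beta chain gene Chrnb1 had changes of 1.00 at 12 h and 1.57 at 144 h. None of the 28 probes was called at 6 h against 1 h without a block, and 6 were higher with either block. Of all tested probes 0.47% were called higher without a block, 2.21% with the replicate number and 1.95% with the chip as a block. Between 6 h and 96 h, 21 of the 28 probes rose and 1 fell, an Atp2a2 probe that is no member and ran against the one that is (-0.57, adjusted p = 0.0198). Of all tested probes 11.2% rose and 11.4% fell.

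Of the metabolic members, Mb and Cox6a2 had 12 h changes below the members' median of 0.94, and Ckm and Pgam2 above it. Mb, myoglobin, the oxygen-binding protein of muscle, read 8.97, 8.55 and 8.77 (0 h), 9.62, 8.68 and 9.20 (6 h), 9.92, 9.14 and 9.60 (12 h), 11.51, 11.18 and 11.26 (24 h), 13.67, 13.34 and 13.43 (48 h) and 14.90, 14.39 and 14.29 (96 h). At 144 h it averaged 14.97 ± 0.15 (SD, n = 3). Its changes were 0.79 at 12 h and 6.21 at 144 h. Its 0 h arrays lay close to the floor of the scale, so this size depends on that floor. Cox6a2, a muscle form of a cytochrome c oxidase subunit, had changes of 0.74 at 12 h and 5.58 at 144 h. Ckm, the muscle creatine kinase, had changes of 1.29 and 3.99, and Pgam2, the muscle phosphoglycerate mutase of glycolysis, of 1.32 and 4.76. These 4 were the members among 15 tested probes for muscle energy metabolism. In that list 0 probes were called at 6 h against 1 h without a block. With the replicate number as a block 0 were higher and 2 lower, and with the chip as a block 2 were higher and 1 lower. Of all tested probes 0.47% were called higher without a block, and 2.21% and 1.95% with these blocks. Between 6 h and 96 h, 14 of 15 rose and 0 fell, against 11.2% and 11.4% of all tested probes. Ctrb1, annotated as the digestive protease precursor chymotrypsinogen, was among the 10 named members with the largest 144 h change (1.08 at 12 h and 5.06 at 144 h).

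A few members had little further gain after 12 h or lost their gain for a time. Igfbp4, a secreted binding protein of insulin-like growth factors, was read by 2 member probes. The first read 10.42, 9.82 and 10.90 (0 h), 11.41, 11.49 and 11.78 (9 h), 11.33, 11.36 and 11.67 (12 h), 10.15, 10.64 and 10.42 (48 h), 10.41, 11.32 and 11.23 (96 h) and 11.27, 11.61 and 11.68 (144 h). The 48 h values lay below every 9 h and 12 h value and within the 0 h range. The second probe gave the same dip, with changes of 0.93 at 12 h, -0.07 at 48 h and 1.15 at 144 h. Ccn5, a matricellular protein, had changes of 1.23 (12 h), 0.61 (48 h), 0.44 (96 h) and 1.18 (144 h). Both Itgb5 probes, for integrin beta 5 and named after their values were seen, dipped as well. Their changes were 0.80 and 0.70 (12 h), 0.31 and 0.09 (48 h), and 1.03 and 0.81 (144 h). In all, 8 members were lower at 48 h than at 12 h. Zbtb18, a zinc-finger repressor, had changes of 1.14 at 12 h and 1.05 at 144 h. It read 12.50, 11.66 and 11.71 at 12 h, against 11.03, 10.86 and 10.59 at 0 h, with replicate 1 above the other 2. Without replicate 1 its 144 h change was 0.62, below the 0.8 that the rule asks for. Cyp51, an enzyme of cholesterol synthesis, was the 1 member of 21 tested probes for that pathway, with changes of 0.62 (12 h), 1.30 (48 h) and 0.84 (144 h).

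The first test asked which members had moved between 1 h and 3 h. At 3 h against 1 h, 3 of 142 members were called higher (limma, adjusted p below 0.05) and 0 lower, against 0.252% of all 29812 tested probes called higher and 0.389% called lower. With the replicate number as a block, 12 members were higher (1.02% of all probes), and with the chip as a block 13 (1.04%). The chip block moved the members' median difference from 0.18 to 0.26. Its chip offsets drew in part on arrays that chose the members. Without replicate 2, or without replicate 3, 1 member was called. Within replicates 1, 2 and 3 the median member difference was 0.007, 0.18 and 0.34, with 73, 128 and 134 of 142 above 0. Of all tested probes 47.0%, 50.3% and 48.4% were above 0, so members in replicate 1 were close to all probes. Only in replicate 1 were both arrays on the same chip. Called without a block were Aif1l, Wnt9a and a probe with no gene name. Aif1l, an actin-binding relative of allograft inflammatory factor, read 12.83, 12.97 and 12.99 at 3 h, against 12.16, 12.18 and 12.26 at 1 h (adjusted p = 7.23e-05). Wnt9a, a secreted Wnt ligand, read 10.83, 10.98 and 11.37 at 3 h, against 10.28, 10.07 and 10.09 at 1 h (adjusted p = 0.00452). In both genes all 3 h values lay above all 1 h values. These genes are named because they were called, after their values were seen.

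At 6 h against 1 h, 27 of the 142 members were called higher and 0 lower, against 0.47% of all tested probes called higher and 0.785% called lower. With the replicate number as a block the count was 78 (2.21% of all probes), and with the chip as a block 93 (1.95%). Without a block the median difference of the members was 0.51, against 0.00 for all probes. Of the members' differences 141 of 142 were above 0, against 47.5% of those of all tested probes. With the chip as a block the members' median was 0.60, and chip offsets drew in part on arrays that chose the members. Mybph and Actc1 had larger differences than most of the 27 but replicates farther apart. The 27 included both Cdkn1a probes, Smyd1 and all 4 Kelch genes, and, singled out after their values were seen, Aif1l (0.98, adjusted p = 4.97e-07), Hacd1, a muscle fatty acid elongation enzyme (0.68, adjusted p = 0.000553), E2f2, a cell cycle transcription factor (1.13, adjusted p = 0.0295), Tfrc, the transferrin receptor (1.34, adjusted p = 0.0132), and 1 of 2 Hes6 probes (0.52, adjusted p = 0.0162). Tfrc read 11.55, 11.53 and 11.58 at 6 h, against 9.99, 10.30 and 10.35 at 1 h. Within replicates 1, 2 and 3 the median member difference was 0.59, 0.37 and 0.58, and only in replicate 1 were both arrays on the same chip. All 36 arrays shared the estimate of spread in this test, and with the 6 arrays of 1 h and 6 h alone 5 members were called. Leaving out replicate 1, 2 or 3 at every time left 13, 11 and 6 members called. Leaving out single arrays left 14 (1 h replicate 2), 17 (1 h replicate 3) and 9 (6 h replicate 1).

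At 6 h against 3 h, 0 of the 142 members were called (limma), against 0.0302% of all probes called higher and 0.0302% called lower. At an unadjusted p below 0.05, 36 members were higher, against 2.53% of all probes. With the replicate number as a block 1 member was called, Klhl41 (0.86, adjusted p = 0.0366; 0.134% of all probes were higher). With the chip as a block 10 were called (0.181% of all probes). These were Klhl41, Smyd1, Mybph, Myom2, Hacd1, Hes6, Ccdc134, Slc2a6 and 2 probes without a gene name, listed after their values were seen. Here both arrays of each replicate shared a chip. The median member difference was 0.55 in replicate 1, 0.19 in replicate 2 and 0.26 in replicate 3. Of the members' mean differences 139 of 142 were above 0, against 50.3% of those of all tested probes.

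At 96 h against 6 h, 125 of the 142 members were called higher and 0 lower, against 11.2% of all tested probes called higher and 11.4% called lower. With either block 133 were higher (14.9% and 14.4% of all probes). The median difference of the members was 1.60. These counts were largely set by the choice of members, because 96 h lies between 48 h and 144 h, which the rule used. The later risers, also chosen on late levels, gave 95 of 97 called higher without a block. Mb differed most, by 5.36 ± 0.22 (adjusted p = 1.57e-17), followed by Myoz2 (5.07) and Cox6a2 (5.01). The 17 members not called included Acta1, which was called with either block, and members with small negative differences, among them Igfbp4 (-0.29 and -0.26), Zbtb18 (-0.07), Ccn5 (-0.03) and Tfrc (-0.35). Of those, Tfrc read 11.09, 11.18 and 11.36 at 96 h, against 11.55, 11.53 and 11.58 at 6 h (adjusted p = 0.454).

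**Figure D3:**
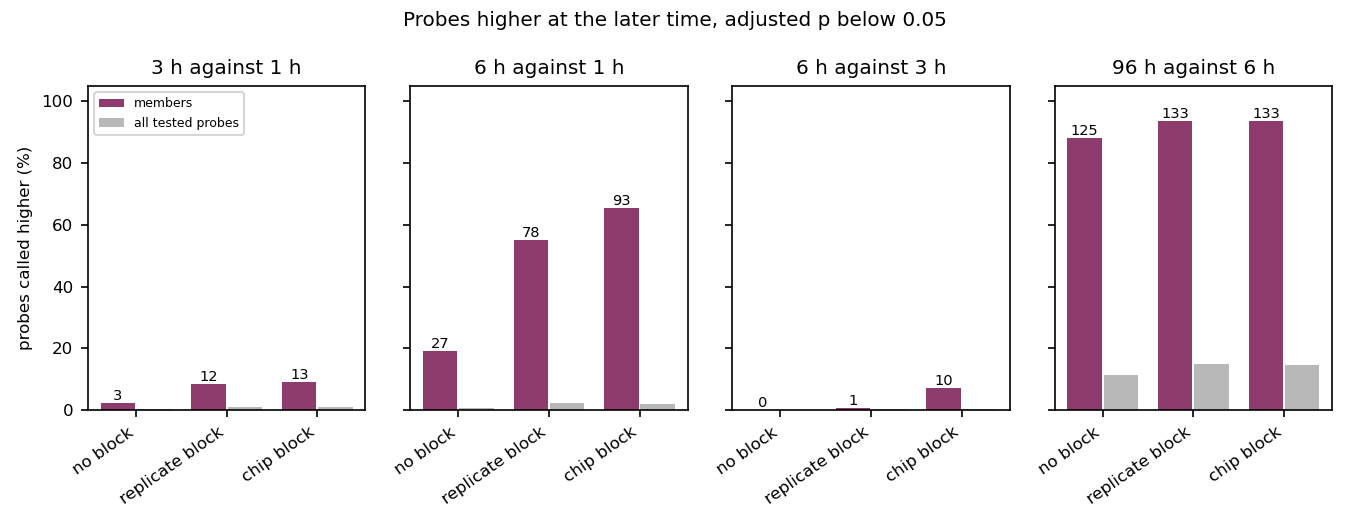
Percent of probes called higher at the later time (limma, adjusted p below 0.05, vertical axis from 0) among the 142 members and among all 29812 tested probes, for 4 comparisons and 3 fits (no block, replicate number as a block, chip as a block). Numbers above the bars count members; the counts are 27, 78 and 93 at 6 h against 1 h and 125, 133 and 133 at 96 h against 6 h.

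The replicates differed from each other more in the members than over all tested probes, which include many near the floor, and replicate 2 was often the lowest. The median range over the 3 replicates was 0.39 for the members at 0 h, against 0.07 for all tested probes. It was 0.65 at 6 h, 0.69 at 9 h and 0.29 at both 24 h and 48 h. For the 78 members with a 0 h mean above 9 and a 144 h mean below 15, away from the ends of the scale, it was 0.37 (0 h), 0.55 (6 h), 0.46 (9 h) and 0.26 (24 h). Replicate 2 was the lowest of the 3 for 115 members (0 h), 116 (6 h) and 114 (12 h), and for 26 (144 h), whereas over all tested probes it was the lowest in 31.2%, 30.5%, 27.4% and 33.0%. The median level of the members at 6 h was 10.88, 10.33 and 10.66 in replicates 1, 2 and 3, and at 48 h 12.29, 12.24 and 12.18. The replicates were successive passages, and each was spread over 2 chips that held no other replicate. Replicate 2 was lowest in most members on both of its chips, at 0 h on one and at 6 h on the other, and not at 144 h on the first. The part of passage or chip in this was not tested.

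**Figure D4:**
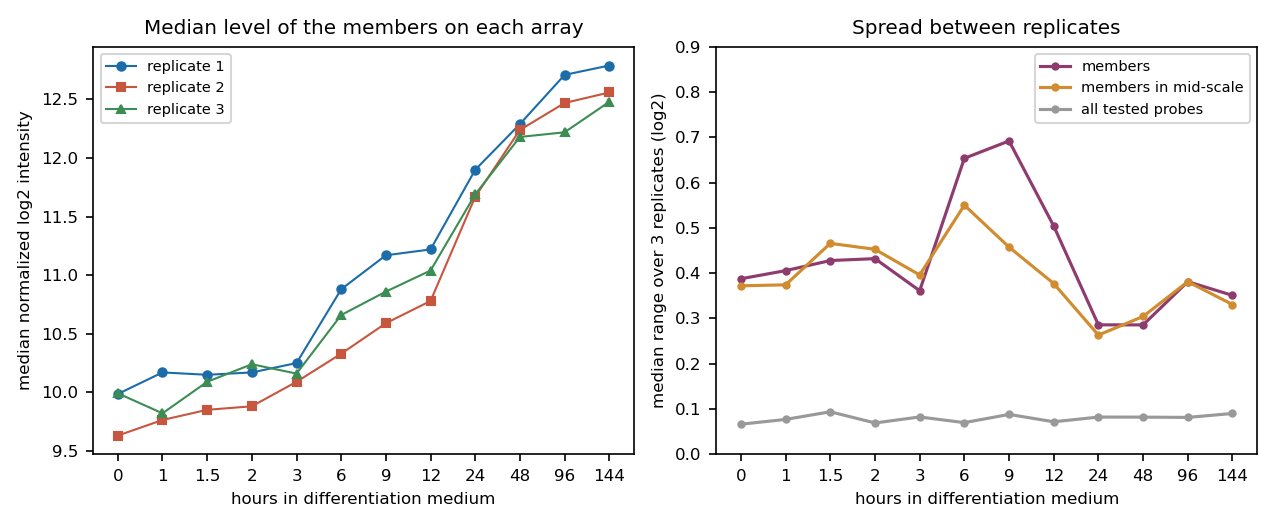
Left, median normalized log2 intensity of the 142 members on each array against time, 1 line per replicate; right, median over probes of the range across the 3 replicates for all members, for the 78 members away from the ends of the scale, and for all 29812 tested probes. Replicate 2 is lowest through 12 h, and the range of the members is 0.69 at 9 h and 0.29 at 24 h.

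When the rule was applied to 2 replicates and read in the third, 127, 173 and 150 probes were chosen with replicate 1, 2 or 3 held out. Their median change in the held-out replicate was 1.00, 0.77 and 0.90 at 12 h and 2.35, 2.22 and 2.29 at 144 h. All 127 and all 150 were above 0 at 12 h in held-out replicates 1 and 3, and 160 of 173 in replicate 2. At the edge of the rule, Map3k7cl entered with a 9 h change of 0.502, and a probe without a gene name was left out with 0.4999. In all, 59 probes failed on the 9 h condition alone. For the 12 h condition the nearest values were 0.512 (Mfap5, inside) and 0.498 (Josd2, outside), and for the 144 h condition 0.808 (Itgb5, inside) and 0.783 (a probe without a gene name, outside). For the margin to 24 h and 48 h they were -0.461 (Rrp12, inside) and -0.511 (Fndc5, outside).

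The neighbouring sets of probes were set beside the members in comparisons among times that the rule did not use. Cuts on the same times as for the members chose these sets. Because 6 h and 96 h lie next to those times, the values below follow in part from the cuts. The 53 probes that rose by 9 to 12 h and did not stay had a median 12 h change of 0.72 and a median 144 h change of 0.39. Of these, 11 (20.75%) were called higher and 1 lower at 6 h against 1 h (limma), against 19.0% of the members called higher, and their median difference was 0.37, against 0.51 for the members. At 96 h against 6 h, 11 were higher and 13 lower. The 97 later risers had a median difference of 0.10 at 6 h against 1 h, where 2 were called, and of 1.48 at 96 h against 6 h, where 95 were called. The difference between sets was not tested.

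**Figure D5:**
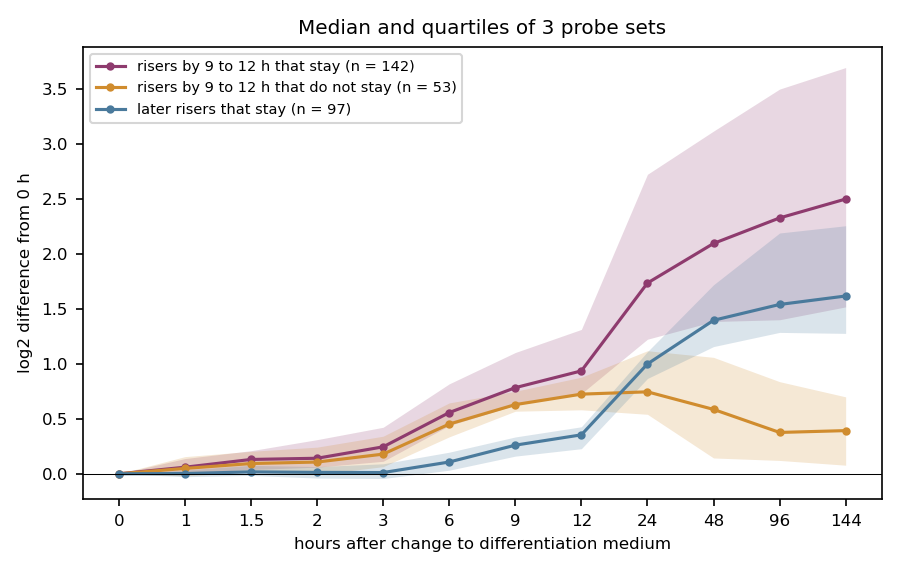
Median (line) and quartiles (band) of the log2 change from 0 h against time (12 times, equally spaced) in the 142 members, the 53 probes that rose by 9 to 12 h and did not stay, and the 97 later risers (below 0.5 at 9 h and 12 h, at least 0.8 at 24 h, and still raised at 144 h). The members and the first of these sets have medians of 0.56 and 0.45 at 6 h and 2.50 and 0.39 at 144 h.

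Probes of the same gene did not always give the same course. Of the member genes, 8 had 2 member probes. Another 55 tested probes targeted 33 of the member genes without being members. Their median change was 0.05 at 12 h and 0.23 at 144 h, and 5 reached 0.5 at 12 h. Many of them lay close to the floor of the scale at 0 h and at all later times, where a change cannot be read. Of the 55, 15 reached 0.8 at 144 h. At 96 h against 6 h (limma without a block), 26 were called higher and 1 lower, against 11.2% and 11.4% of all tested probes. A second Tpm2 probe, already at 14.64 at 0 h, had changes of 0.17 at 12 h and 0.32 at 144 h, whereas the member probe started at 11.10. Another Atp2a2 probe and another Itga7 probe had large late changes (2.87 and 2.11 at 144 h). Where probes of 1 gene differ, the values above are those of the member probe.

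The myotube markers gave 6 members (Acta1, Ckm, Mymk, Myog, Tnnt3 and 1 Ttn probe) of 15 tested probes. Lists for adipocytes, osteoblasts, macrophages, endothelial cells and neurons gave 0 members, of 7, 4, 2, 4 and 3 tested probes. At 96 h against 6 h, 3 adipocyte probes were lower and 1 osteoblast probe was higher (11.4% and 11.2% of all tested probes were called lower and higher). The lists for FoxO and starvation response, extracellular matrix, interferon response, and complement and antigen presentation gave 0 members, of 17, 31, 10 and 11 tested probes. The members were 142 of all 29812 tested probes. At that share 0 members is the usual outcome for lists this short, so these zeros say little about the cell types or pathways. The list of insulin-like growth factor signalling gave the 2 Igfbp4 probes of 18, and 1 probe rose and 5 fell between 6 h and 96 h. Of the 142 members 30 had no gene symbol, among them the 2 probes with the largest 12 h changes of all, 3.08 and 3.00.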

How the data were processed

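Mouse C2C12 cells were measured at 12 times with 3 replicates each on Illumina bead arrays. The authors deposited raw probe intensities and a normalized table of log2 intensity values for 46019 probes. Their normalization (method not given in the sources used here) came before deposit. Probe names came from the platform annotation: all 44505 rows of the series' value table matched 1 row of the normalized table on all 36 arrays to 4 decimals. Gene symbols were checked through RefSeq (28420 of 28471 probes found, 0 symbols changed).

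The normalized log2 values were used as deposited. Testing was limited to probes with a raw intensity above the array median on at least 3 arrays, which kept 29812 probes and all 142 members. Differences were tested with limma 3.58.1 in R 4.3.3 (1 mean per time over all 36 arrays, empirical Bayes with an intensity trend, two-sided, Benjamini-Hochberg over all tested probes, threshold 0.05). The fit was also run on simulated data with independent errors on every array. Those data lacked the likeness of same-numbered arrays described below, so the fit was not checked for it. Precision is limited by the 3 arrays per time. The replicates are successive passages per the series' design text. Deviations of same-numbered arrays from their time means correlated positively in every pair (lowest 0.399, 0.407, 0.355 and 0.157 for 3 h against 1 h, 6 h against 1 h, 6 h against 3 h and 96 h against 6 h). Some of these pairs also shared a chip, all 3 of them at 6 h against 3 h, and the part of the chip was not tested. The fit without a block ignored this likeness and called fewer members than either blocked fit in every comparison. Alternatives were fits blocked on replicate number or on chip, other normalizations of the raw table, other filters and left-out arrays.

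The members and gene lists were chosen with earlier results of these data known. Named genes were the 10 named members with the largest 12 h change, the 10 with the largest 144 h change, the 3 with the largest share of their 144 h change by 12 h, and members in a gene list. The rule's part for genes called at 6 h against 3 h named none. Genes outside the rule, members or not, are marked where first described, apart from those at the edge of the choice of members.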

Additional observations from a re-analysis of the deposited data

How the results depend on the processing

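Across results and alternatives, 157 values stayed within the tolerance (1.5 times for a count, 1 SD over replicates for a median), 82 moved beyond it and 1 reversed. Precision is limited by 3 arrays per time, and for dim or very bright probes by the ends of the scale. The cause of each shift was not tested.

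Members higher at 3 h against 1 h numbered 3, and 5 with normexp and quantile on the raw table, 5 without the intensity trend, 12 with the replicate block, 13 with the chip as a block, 0 with only the 2 times compared (where 32 had an unadjusted p below 0.05), and 1 to 4 with arrays left out. All probes changed numbered 191, and 53 with median scaling, 723 with the replicate block, 767 with the chip, 5 with the 2 times alone and 10 to 166 with arrays left out.
At 6 h against 1 h, members higher numbered 27, and 43 with median scaling, 78 with the replicate block, 93 with the chip, 5 with the 2 times alone and 6 to 32 with arrays left out. All probes changed numbered 374, and 1607 with the replicate block, 1503 with the chip, 25 with the 2 times alone and 31 to 327 with arrays left out.
At 6 h against 3 h, members higher numbered 0, and 1 with the replicate block and 10 with the chip. All probes changed numbered 18, and 1 with median scaling, 90 with the replicate block, 106 with the chip, 0 with the 2 times alone and 0 to 14 with arrays left out. At 96 h against 6 h, 115 to 125 members were higher and 3566 to 6320 probes changed with arrays left out, the fewest probes without replicate 2.
Median scaling turned the split of all probes at 6 h against 1 h to 252 higher and 39 lower, against 140 and 234 as deposited, and at 96 h against 6 h to 1767 and 5045, against 3327 and 3412. It moved the median of all probes by at most 0.08.

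The rule chose 292 probes from the raw table with normexp and quantile and 262 with median scaling, and 127 to 173 with a replicate held out. With normexp and quantile the members' median change was 0.19 (1.5 h), 0.37 (3 h), 0.80 (6 h), 1.13 (9 h), 1.26 (12 h), 2.00 (24 h), 2.41 (48 h), 2.59 (96 h) and 2.88 (144 h). With quantile and no background correction it was 0.72 (6 h), 0.99 (9 h), 1.16 (12 h), 1.95 (24 h), 2.27 (48 h) and 2.71 (144 h). With 1 replicate held out or left out it ran from -0.036 to 0.13 (1 h, reversed in held-out replicate 3), 0.054 to 0.16 (1.5 h), 0.03 to 0.28 (2 h), 0.12 to 0.30 (3 h), 0.32 to 0.70 (6 h), 0.62 to 0.95 (9 h), 0.77 to 1.00 (12 h), 1.57 to 1.78 (24 h), 1.90 to 2.13 (48 h), 2.09 to 2.39 (96 h) and 2.22 to 2.58 (144 h). The changes of single members without each replicate were added after seeing the data, and at 12 h and 144 h those that moved by over 1.5 times were Myh1 at 12 h (0.67, and 0.26 without replicate 1) and Zbtb18 at 144 h (1.05, and 0.62 without replicate 1).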
